A study of Mus musculus with 2 samples.

Results

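*Trim34a*, *Trim12a*, *Trim12c*, *Trim30b*, *Trim30a* and *Trim30d* are 6 neighbouring genes of the TRIM family, and their rows were taken from a count table of 32285 genes in 42766 sorted mouse microglia. All 6 passed the filter on low values, a count in 1% or more of VEH or of LEM cells. They were chosen by measured values: their levels in the VEH and LEM libraries, their detection in the same cells, and their levels in cells with high against no counts of interferon-stimulated genes (ISGs). Every value on those 3 points is therefore a description and carries no test.

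The cells came from APPswe/PS1δE9 (PSAPP) mice, whose transgenes drive the build-up of amyloid-β in the brain. Mice of both sexes received by daily oral gavage either VEH, methylcellulose in PBS, or LEM, the dual orexin receptor antagonist lemborexant at 30 mg/kg/day in the same carrier, from 9 to 10 months of age. Live CD45lo CD11b+ cells of cortex plus hippocampus were isolated by sorting, and 5 mice were pooled into 1 library per treatment, so a difference between the libraries has no replicate check, and treatment and the mice of each pool cannot be told apart. No transgene-negative mice entered either library.

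The VEH library held 18374 cells and the LEM library 24392 cells, at a median of 5971 and 6034 unique molecular identifier (UMI) counts per cell. Each of 7 microglial markers was detected in 97.2% to 99.9% of the cells of either library, while 3 T cell and 3 B cell markers were each detected in at most 0.082%. Summed choroid plexus markers stood at 435 CPM (counts scaled to the total of the library) in VEH and 1315 in LEM. Without the cells that held choroid plexus or border-associated macrophage markers, the summed log2 ratios given below were 0.30 in place of 0.29 between libraries and 2.09 in place of 2.08 between ISG classes. Cells with *Xist* and no Y-linked counts were called female, and the reverse male. This gave 5686 female and 9025 male cells in VEH and 8409 female and 11223 male cells in LEM, with medians of 6106 to 6157 counts per cell in the 4 groups. How many mice of each sex stand behind these 4 groups was not given in the sources used here.

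TRIM proteins carry a RING domain, a B-box and a coiled coil, and most act as E3 ubiquitin ligases, which attach ubiquitin to other proteins. Many are induced by type I interferon, which signals through its receptor and the kinases JAK1 and TYK2, and many genes it induces hold paired GAAA elements near their starts. The mouse genes described here belong to the branch that holds *Trim5*, known for restriction of retroviruses. TRIM30a is known to promote the loss of TAB2 and TAB3, adaptors that carry signals from Toll-like receptors to NF-κB.

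The 6 genes span 263 kb of mouse chromosome 7 in the GENCODE M21 annotation of GRCm38. *Trim34a* lies at chr7:104244457-104262234 on the plus strand. The other members are on the minus strand, in the order *Trim12a* (chr7:104299894-104315466), *Trim12c* (chr7:104338754-104353362), *Trim30b* (chr7:104355382-104369884), *Trim30a* (chr7:104409025-104465193) and *Trim30d* (chr7:104470014-104507849). *Trim5*, *Trim34b* and *Trim30c* lie between them.

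The members are near copies of each other in places, which bears on how reads could be assigned. Of the words of 90 bases in the protein-coding transcripts of each gene, 24.1% of those of *Trim34a* also occur in another gene, in each case *Trim34b*. The share was 9.05% for *Trim12a*, mostly with *Trim5*, 10.96% for *Trim12c*, also mostly with *Trim5*, and 5.05% for *Trim30a* and 4.84% for *Trim30d*, in each case with the other of that pair. *Trim30b* shared none of its words. The starts of the genes are copies as well: in RefSeq windows of 300 bases, from 250 before to 50 after each start (GRCm38.p6), *Trim12a* and *Trim5* share an unbroken stretch of 241 bases, *Trim30a* and *Trim30d* one of 118 bases and *Trim12a* and *Trim12c* one of 71 bases.

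A pair of GAAA elements 2 bases apart, a form known from the starts of interferon-induced genes, was searched for on both strands as GAAANNGAAA or TTTCNNTTTC. It occurs in 3.44% of 32851 RefSeq promoter windows, and in 6 of the 7 windows of the members, those of 5 of the 6 members. A second window of *Trim30a* (chr7:104446076-104446375) also holds it and is not shown. Stretches around the element are shown because these genes were higher together in ISG-high cells, and because they show which starts are copies. Each is read 5′ to 3′ along the gene, with the paired element in capitals.

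*Trim34a* (chr7:104244457-104244486, plus strand): tggtttggagTTTCAGTTTCttttctctgc
*Trim12a* (chr7:104315466-104315495, minus strand): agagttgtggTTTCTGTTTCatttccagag
*Trim12c* (chr7:104353359-104353388, minus strand): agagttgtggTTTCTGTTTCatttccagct
*Trim30a* (chr7:104465210-104465239, minus strand): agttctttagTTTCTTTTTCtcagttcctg
*Trim30d* (chr7:104507871-104507900, minus strand): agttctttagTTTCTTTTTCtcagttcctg
*Trim5*, a neighbour (chr7:104288136-104288165, minus strand): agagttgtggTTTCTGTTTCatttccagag

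The 30 bases are the same in *Trim30a* and *Trim30d*, and the same in *Trim12a* and *Trim5*. The element lies 36 bases before the RefSeq start in *Trim30a* and 41 before it in *Trim30d*, and from base 11 after it in *Trim34a* and *Trim12a*. Read along the gene, the GENCODE start of *Trim12a* (chr7:104315466) comes after the element. The windows of *Trim30c* and *Trim34b* do not hold it. That of *Trim30b* (chr7:104358597-104358896) does not either, but it lies at a RefSeq start inside the GENCODE span of the gene, and the outer start was not searched. Of the 3 genes that define the ISG classes below, *Ifit3* and *Isg15* hold the element in their windows and *Irf7* does not. A match is a description of letters and not of binding.

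In the whole libraries, *Trim12a* and *Trim30d* stood in LEM at 2.04 and 2.07 times their VEH levels, while the other 4 members differed little. *Trim12a* was at 10.2 CPM in VEH (95% counting interval 9.65 to 10.8) and 20.8 CPM in LEM (20.1 to 21.5), a log2 ratio of 1.03 (0.93 to 1.12). *Trim30d* was at 9.32 CPM in VEH and 19.2 CPM in LEM, a log2 ratio of 1.05 (0.95 to 1.15). These 2 of the 6 members were past a 1.5-fold difference in that direction, as were 1.20% of all 11910 genes tested. *Trim30a*, *Trim12c* and *Trim34a* had log2 ratios of 0.13, 0.14 and 0.12, and that of *Trim30b* was 0.16, with a counting interval of -0.01 to 0.34. The median over all genes tested was 0.01. Counting intervals here and below leave out any spread between mice.

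Read by the sex of the cells, the difference of *Trim12a* and *Trim30d* lay between the female cells. The VEH female cells nearly lacked counts of both genes, which were present in the male cells of the same library. For *Trim12a*, which encodes a relative of TRIM5, 16 counts were found in 12 of the 5686 VEH female cells (0.438 CPM). The VEH male cells held 951 counts (16.3 CPM), the LEM male cells 1035 (14.0 CPM) and the LEM female cells 1692 (30.7 CPM). The order of levels was thus LEM female, VEH male, LEM male and VEH female, with no overlap between the counting intervals.

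For *Trim30d*, a close copy of *Trim30a*, 35 counts were found in 33 VEH female cells (0.958 CPM). The VEH male cells stood at 14.1 CPM, the LEM male cells at 12.97 CPM and the LEM female cells at 27.7 CPM. The order was the same as for *Trim12a*, except that the intervals of the VEH male cells (13.1 to 15.0) and LEM male cells (12.2 to 13.8) overlapped.

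**Figure D1:**
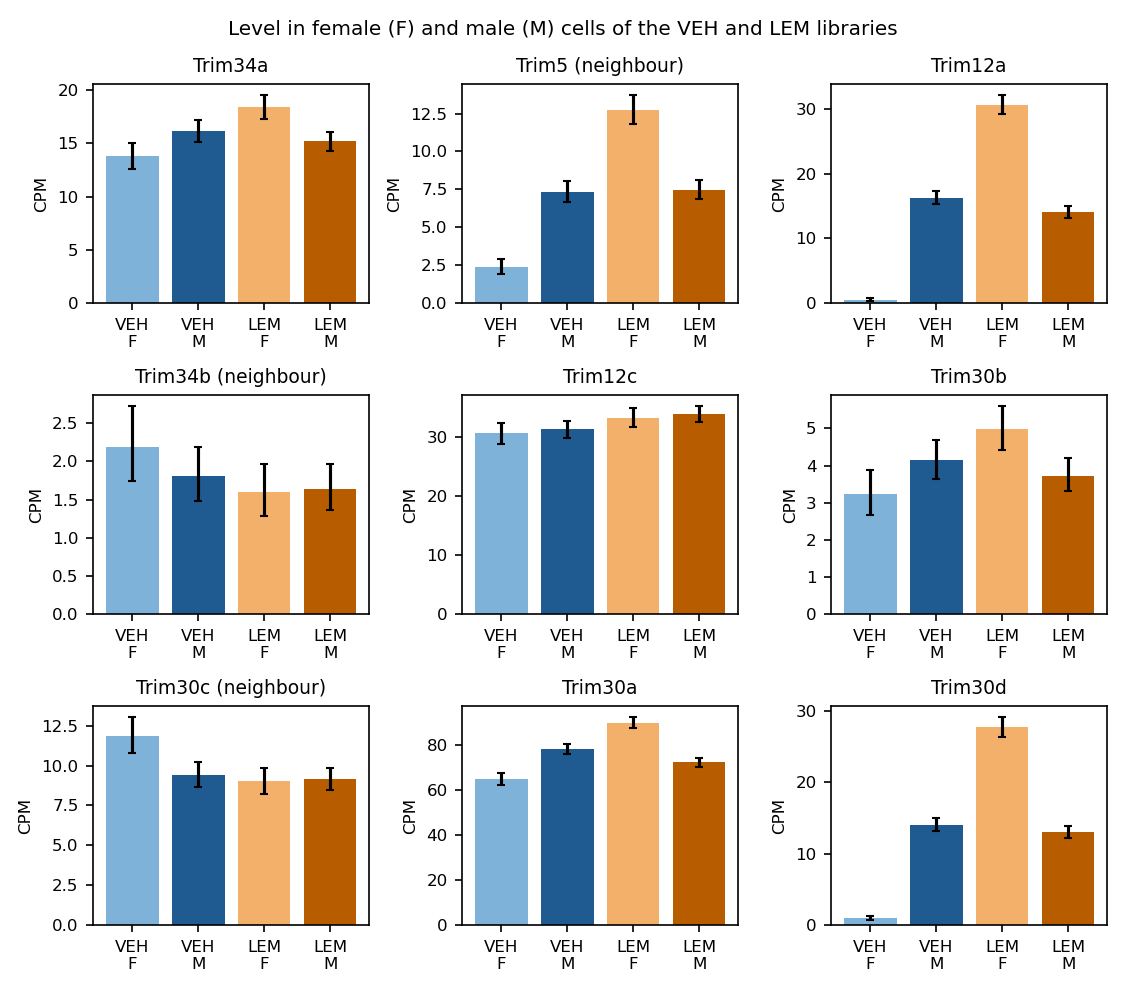
CPM (y axis, from 0, with its own scale in each panel) of the 6 members and of 3 neighbours in their order along the chromosome, in female (F) and male (M) cells of the VEH and LEM libraries; error bars are 95% Poisson intervals for counting error. *Trim12a* and *Trim30d* are near 0 in VEH female cells alone, *Trim5* is at 2.35 CPM there, and *Trim12c* lies between 30.6 and 34.0 CPM in all 4 groups.

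Between female cells, LEM over VEH was 70.0-fold for *Trim12a* (counting interval 43.0 to 123) and 28.9-fold for *Trim30d* (20.7 to 41.7). Of 11904 genes tested, 8 were at least 8-fold higher in LEM female than in VEH female cells (0.0672%), and *Trim12a* and *Trim30d* were 2 of these 8. This scan was added after the values had been seen. Between male cells the log2 ratio was -0.21 for *Trim12a* and -0.12 for *Trim30d*, the first opposite in direction to the whole libraries and the second with a counting interval that holds 0 (-0.25 to 0.02). Within the LEM library, female cells held 2.18 times the level of male cells for *Trim12a* and 2.14 times for *Trim30d*.

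The low level in VEH female cells held under stricter sex calls and at matched depth. With at least 2 *Xist* counts per cell, 4801 VEH female cells held 14 counts of *Trim12a* and 28 of *Trim30d*. After every cell was thinned to 2000 counts, *Trim12a* was detected in 0.0918% of VEH female cells, 3.59% of VEH male cells, 6.24% of LEM female cells and 2.68% of LEM male cells. *Trim30d* was detected in 0.257%, 2.71%, 5.18% and 2.35% of them.

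Female and male cells of a treatment shared 1 library, and so its free RNA. Unthinned, *Trim12a* was detected in 0.211% of VEH female cells at a median depth of 6157 counts and in 9.27% of VEH male cells at 6106. Of the 12 VEH female cells with *Trim12a*, 4 were called doublets by Scrublet, and their median depth was 9049 counts. Of the 33 with *Trim30d*, 5 were called doublets. In the VEH cells that held neither *Xist* nor Y-linked counts, *Trim12a* was at 12.96 CPM and *Trim30d* at 11.5 CPM, and in those of LEM they were at 14.7 and 14.6 CPM.

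The other 4 members differed far less between the groups. *Trim12c*, a close relative of *Trim12a*, was detected in 16.7% to 18.8% of cells in the 4 groups, and its female and male log2 ratios of LEM over VEH were both 0.12. *Trim30a* was at 64.7 CPM in VEH female, 77.9 in VEH male, 89.7 in LEM female and 72.1 in LEM male cells. Its log2 ratio was 0.47 between female cells and -0.11 between male cells. *Trim34a* was at 13.8, 16.1, 18.4 and 15.2 CPM in the same order, and the intervals of LEM male cells overlapped those of VEH male and of VEH female cells.

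*Trim30b* was the least detected member, in 2.02% of VEH female, 2.43% of VEH male, 3.10% of LEM female and 2.31% of LEM male cells. In 215 cells with choroid plexus markers, at a median depth of 8057 counts, the share was 2.33% (interval 0.759% to 5.34%), which holds the shares of all 4 groups. In the same 215 cells *Trim30a* was detected in 23.3%, *Trim12c* in 17.2%, *Trim34a* in 7.44%, *Trim12a* in 6.05% and *Trim30d* in 5.58%. The intervals of *Trim12c* (12.4% to 22.9%) and *Trim34a* (4.31% to 11.8%) in these cells also hold the shares of all 4 groups. Those of *Trim12a* (3.26% to 10.1%) and *Trim30d* (2.92% to 9.55%) hold the shares of both male groups but of neither female group, and that of *Trim30a* (17.8% to 29.5%) holds the share of VEH female cells, 29.02%, alone. These 215 cells were picked by choroid plexus markers alone, and whether droplets among them also held microglia was not tested. Their shares are not taken as a background level. In VEH female cells, *Trim12a* and *Trim30d* were detected in only 0.211% and 0.580%. *Trim30a*, *Trim30b* and *Trim34a* shared an order of the 4 groups at its ends, with LEM female highest and VEH female lowest by CPM.

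ISG-high cells were not spread evenly over the groups. They made up 1.09% of VEH female, 1.88% of VEH male, 2.45% of LEM female and 2.06% of LEM male cells. Within cells with no counts of *Ifit3*, *Isg15* and *Irf7*, *Trim30a* was at 57.1 CPM in VEH female and 75.6 CPM in LEM female cells, a log2 ratio of 0.40 against 0.47 over all female cells. *Trim12a* in the same cells was at 0.337 against 28.9 CPM, and *Trim30d* at 0.613 against 24.4 CPM. For *Trim12a* and *Trim30d* the log2 ratios in these cells were 6.42 and 5.31, against 6.13 and 4.85 over all female cells. In ISG-high female cells *Trim30a* was at -0.14, with an interval that holds 0 (-0.39 to 0.11).

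**Figure D2:**
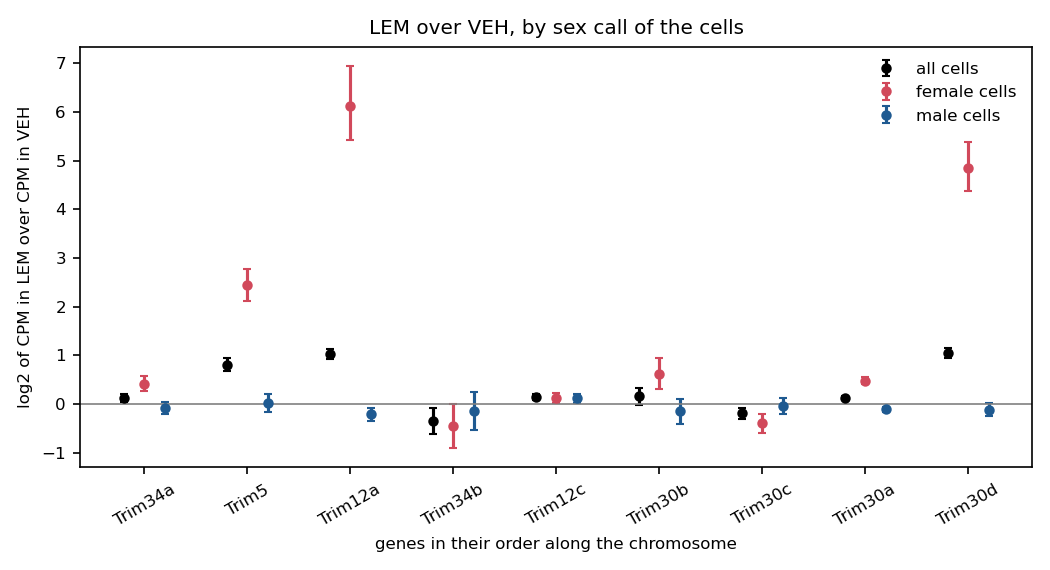
Log2 ratio of CPM in LEM over VEH (y axis) for the 6 members and 3 neighbours in chromosomal order (x axis), over all cells (black), female cells (red) and male cells (blue), with 95% counting intervals. The female ratios of *Trim12a* (6.13), *Trim30d* (4.85) and *Trim5* (2.44) stand above those of the other genes, and the male ratios lie between -0.21 and 0.12.

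Of 115 further genes of the table within 1 Mb of the members, 87 had 0 counts, and 4 had a count in 1% or more of VEH or of LEM cells. These are *Trim5*, *Trim34b*, *Trim30c* and *Fam160a2*. *Trim5*, which lies beside *Trim12a*, was at 2.35 CPM in VEH female, 7.34 in VEH male, 12.8 in LEM female and 7.49 in LEM male cells, the same order of ends as *Trim12a* with a log2 ratio between female cells of 2.44. Its transcripts share 140 words of 90 bases with those of *Trim12a*. *Trim30c*, between *Trim30b* and *Trim30a*, went the other way, with 11.9 CPM in VEH female and 9.01 CPM in LEM female cells and a log2 ratio of -0.40 (-0.59 to -0.21). *Fam160a2*, outside the Trim genes, was at 21.7 and 23.0 CPM in the same cells. Between *Trim12a* and *Trim30d* on the chromosome lie *Trim12c*, *Trim30c* and *Trim30a*, which did not share their low level in VEH female cells. *Trim34b* and *Trim30b* also lie there and had few counts, but neither nearly lacked them in VEH female cells. *Trim34b* was at 2.19 CPM in these cells (80 counts), its highest level in the 4 groups. *Trim30b* was at 3.23 CPM (118 counts), against 4.14 CPM in VEH male and 4.98 CPM in LEM female cells.

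All 6 members were higher in ISG-high cells, those with at least 4 summed counts of *Ifit3*, *Isg15* and *Irf7*, than in cells with 0. There were 862 ISG-high cells (296 VEH, 566 LEM) and 37650 with 0, at median depths of 7366 and 5881 counts. *Ifit3*, *Isg15* and *Irf7* are standard interferon-induced genes, and IRF7 is itself a transcription factor that drives interferon production. At least a 2-fold difference in that direction was found for 6 of 6 members and for 2.15% of 11907 genes tested, and since the contrast was part of the choice of members this share is given for scale alone.

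*Trim30a* was at 63.4 CPM in VEH cells without ISG counts and 351 CPM in VEH ISG-high cells, and at 66.5 and 334 CPM in LEM. The log2 ratio over both libraries was 2.38. *Trim30b* had the highest log2 ratio of the members, 2.78, from 3.14 to 26.9 CPM in VEH and from 3.46 to 20.8 CPM in LEM. Its share of cells went from 2.003% to 16.1%, without thinning to a common depth.

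*Trim30d* had a log2 ratio of 2.46, with 7.72 to 48.3 CPM in VEH and 16.0 to 78.6 CPM in LEM. *Trim34a* had 1.96, *Trim12a* 1.54 and *Trim12c* the lowest, 1.06, from 29.8 to 60.9 CPM in VEH and from 31.8 to 66.1 CPM in LEM. *Trim30c*, a neighbour that is no member, had 2.96, above each of the 6, while *Trim5* had 0.70 and *Fam160a2* -0.23.

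**Figure D3:**
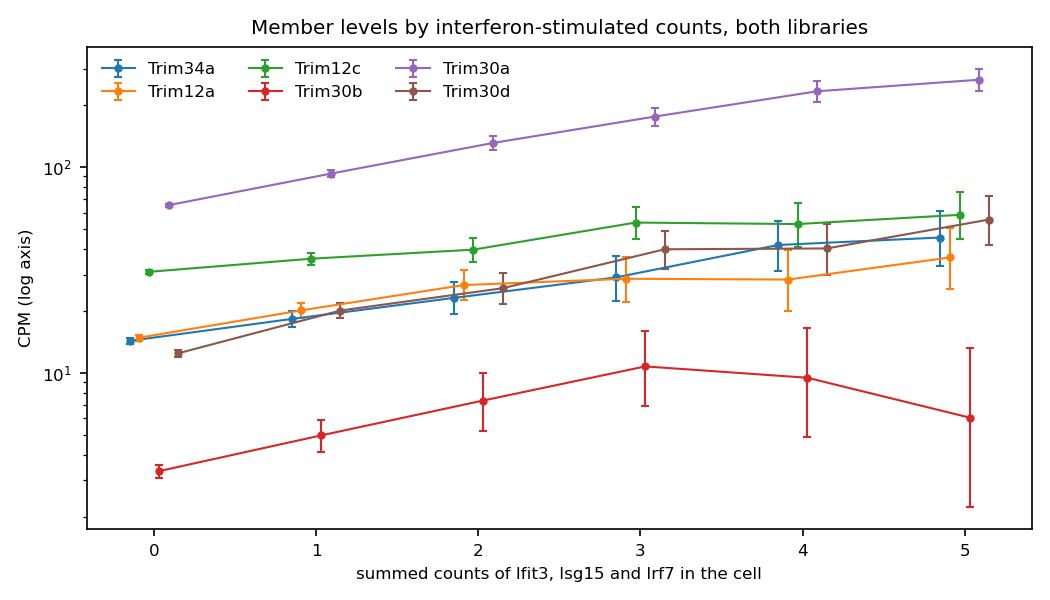
CPM on a log axis (y axis) of the 6 members in cells with 0 to 5 summed counts of *Ifit3*, *Isg15* and *Irf7* (x axis), both libraries together, with 95% counting intervals; cells with more than 5 are not drawn. *Trim30a* goes from 65.2 CPM at 0 to 265 CPM at 5, without a step at the threshold of 4.

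The threshold of 4 cut a continuous range. The 278 cells with exactly 3 ISG counts, just outside it, held the 6 members at a summed 338 CPM, and the 158 cells with exactly 4, just inside it, at 406 CPM. The summed level was 141 CPM at 0 counts, 192 at 1 and 253 at 2. Median depth was 7237 counts at 3 and 7016 at 4, but 5881 at 0.

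Within the 4 groups by library and sex, *Trim12a* and *Trim30d* stood apart in VEH female cells, and the ratios of LEM female cells were lower for some members. Between LEM female and LEM male cells the log2 ratios of ISG-high over ISG-none cells were 0.89 and 1.94 for *Trim12a*, 1.97 and 2.67 for *Trim30d* and 2.09 and 2.63 for *Trim30a*, in each case with intervals that did not overlap. Those of *Trim34a*, *Trim12c* and *Trim30b* overlapped. In VEH female cells, *Trim12a* had 0 counts in the 62 ISG-high cells, and 3 counts, the limit that a count of 0 allows, would be 5.79 CPM (the 95% interval used for the other groups reaches 7.12 CPM). It was at 50.8 CPM in VEH male, 53.5 in LEM female and 48.4 in LEM male ISG-high cells, whose intervals overlapped. The LEM female and LEM male cells, which differed 2.18-fold over all cells, thus came close to each other for this gene among ISG-high cells.

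*Trim30d* in VEH female cells was at 0.613 CPM without ISG counts (20 counts) and at 15.5 CPM in ISG-high cells (8 counts, interval 6.67 to 30.4). It was detected in 11.3% of those 62 cells. The ISG-high level was 61.4 CPM in VEH male, 95.9 in LEM female and 67.0 in LEM male cells, all above that of VEH female cells. *Trim30a*, for comparison, was at 355, 368, 322 and 375 CPM in ISG-high cells of VEH female, VEH male, LEM female and LEM male cells, with overlapping intervals.

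**Figure D4:**
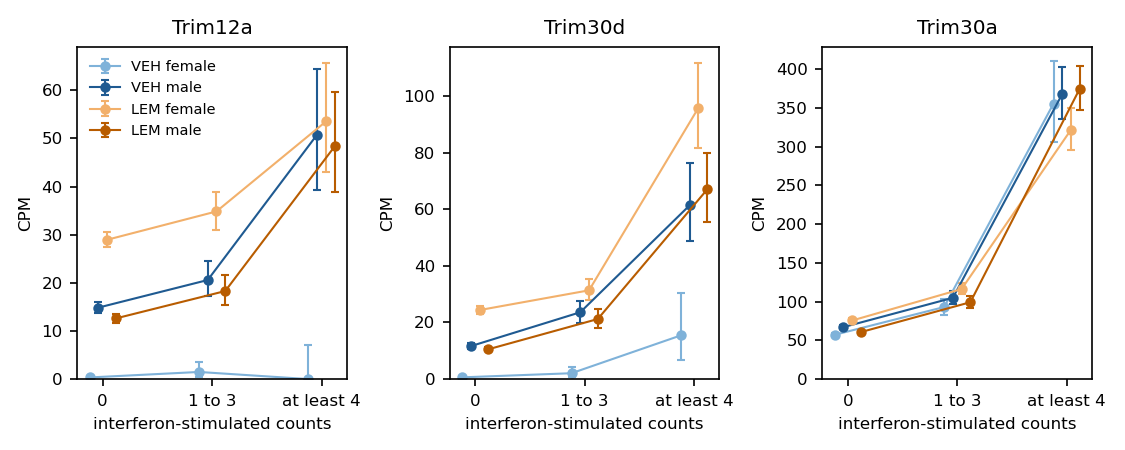
CPM (y axis, from 0, with its own scale in each panel) of *Trim12a*, *Trim30d* and *Trim30a* in cells with 0, 1 to 3 and at least 4 ISG counts (x axis), for the 4 groups by library and sex, with 95% counting intervals. *Trim30a* is at 322 to 375 CPM in the ISG-high cells of all 4 groups, while *Trim12a* has 0 counts and *Trim30d* 15.5 CPM in those of VEH female cells.

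The genes whose levels went most like those of a member were ranked over the 12 groups of cells by library, sex and ISG class, which share 2 libraries. The ranking was among 7521 genes with a count in 10% or more of VEH or of LEM cells. For *Trim30a* the closest genes included *Phf11b*, *Ddx58*, *Parp14* and *Eif2ak2*, with Pearson's r of log2(CPM + 1) from 0.995 to 0.997. *Ddx58* encodes the RNA sensor RIG-I and *Eif2ak2* the kinase PKR. For *Trim12a* they were *Alg8*, *Calr*, *Vamp5*, *Pycard* and *Cryba4*, with r from 0.906 to 0.923, and for *Trim30d* *Creld2*, *Pycard*, *Rps18*, *Sdf2l1* and *Hsp90b1*, from 0.903 to 0.949.

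None of those genes had the drop of *Trim12a* in VEH female cells: *Alg8*, the closest, was at 33.3 CPM there and 39.6 to 43.5 CPM elsewhere. The cut at 10% of cells kept *Trim5*, found in 5.83% of LEM cells, out of the ranking, so genes at such levels could not appear. Between members, r was 0.996 for *Trim34a* and *Trim30b*, 0.994 for *Trim30b* and *Trim30a*, 0.822 for *Trim12a* and *Trim30d* and 0.256 for *Trim12a* and *Trim30a*. *Trim30a* and its close copy *Trim30d* had an r of 0.688.

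At least 1 of the 6 members was detected in 50.2% of VEH and 57.3% of LEM cells, and at least 2 in 15.4% and 22.1%. In ISG-high cells at least 1 was detected in 95.6% of VEH and 94.7% of LEM cells. After thinning to 2000 counts, the share with at least 1 was 64.7% and 68.3% in ISG-high cells against 22.4% and 25.7% in cells without ISG counts.

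Members were detected in the same cells more often than separate detection would give. The Mantel-Haenszel odds ratio of co-detection, which compares cells only within the same library, sex, ISG class and 1 of 10 ranges of depth, was above 1 for 15 of 15 pairs over all cells with a sex call. It ranged from 1.08 for *Trim12c* and *Trim30d* to 1.63 for *Trim12a* and *Trim30d*, closely followed by 1.61 for *Trim34a* and *Trim30b*, with a median of 1.29. Co-detection was part of the choice of members, so 15 of 15 is a description alone. The share above 1 over all pairs of genes was not computed. The neighbour *Trim5* was read with *Trim12a*, *Trim30d*, *Trim12c* and *Trim30a*, and the neighbour *Trim30c* with *Trim12a*, *Trim30d* and *Trim30a*. These pairs gave 1.02, for *Trim5* with *Trim12c*, to 1.61, for *Trim5* with *Trim30d*. *Trim12a* or *Trim30d* with the 9 genes named above as most like them gave 0.75 to 1.13. Those 9 genes are not matched to the members in detection. In the library with the higher share they were found in 14.3% (*Vamp5*) to 93.8% (*Hsp90b1*) of cells. The members were found in 2.70% (*Trim30b*) to 33.9% (*Trim30a*). In LEM female cells alone the highest pair was *Trim30b* with *Trim30d* (1.59). Read alone, *Trim12c* with *Trim30d* was at 0.95 in VEH male cells and *Trim12c* with *Trim30b* at 0.93 in LEM male cells. The strata do not hold the mouse of origin, and what a mixing of mice adds to these values was not tested. Nor do they fix the ISG count within a class. In the class of 1 to 3 counts the summed members went from 192 CPM at 1 to 338 CPM at 3. What such a rise adds to the odds ratios was not tested either. Without strata the odds ratio of *Trim12a* and *Trim30d* was 2.83.

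The value for this pair differed between the groups, each read alone after the pooled value had been seen. In LEM male cells, 19.1% of the cells with *Trim12a* held *Trim30d* against 6.07% of those without, an odds ratio within strata of 2.93. In VEH male cells the shares were 15.5% and 7.01% and the odds ratio 1.92. In LEM female cells, where both genes were most abundant, they were 18.8% and 14.6%, and the odds ratio was 1.14. In VEH female cells 1 cell held both, so the value there carries no information.

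The other pairs did not show this split between the male groups and LEM female cells to the same extent. Some showed a smaller one and others none. In VEH male, LEM female and LEM male cells, *Trim34a* with *Trim30b* had odds ratios of 1.92, 1.34 and 1.61. In the same order, *Trim34a* with *Trim30d* had 1.46, 1.17 and 1.47, and *Trim12a* with *Trim30a* had 1.40, 1.15 and 1.37. *Trim30a* with *Trim30d* had odds ratios of 1.33 in VEH male, 1.39 in LEM female and 1.47 in LEM male cells. *Trim5* with *Trim12a* had 1.57 in VEH male, 1.06 in LEM female and 2.15 in LEM male cells, which is the order of *Trim12a* with *Trim30d*. *Trim12a* with *Trim12c*, its closest relative among the members, stayed between 1.06 and 1.11 in these 3 groups.

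**Figure D5:**
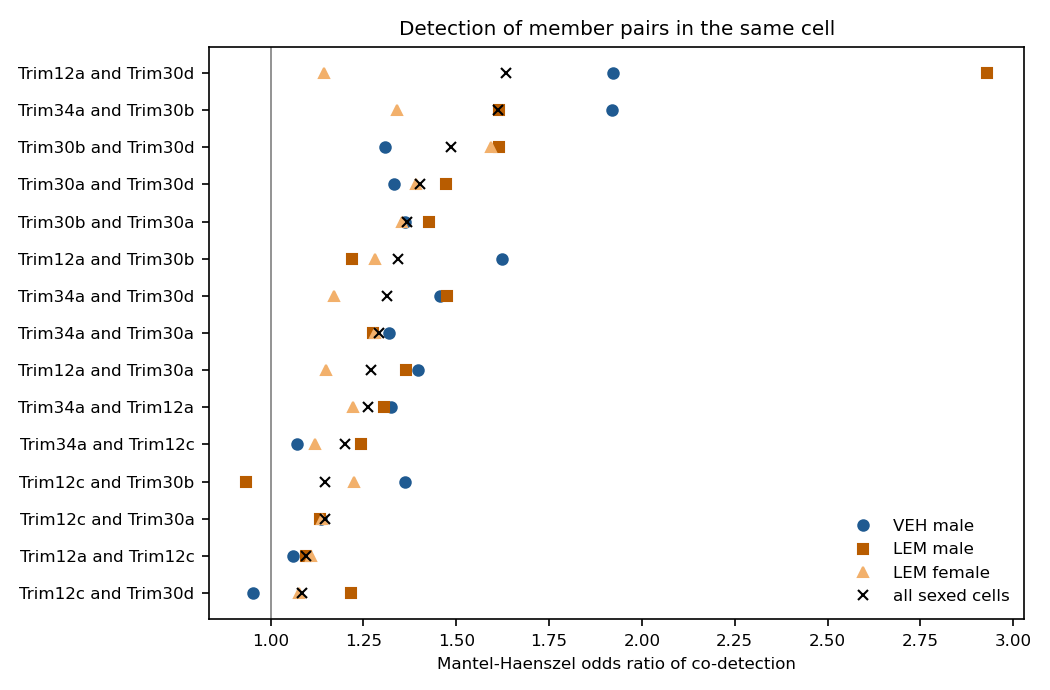
Mantel-Haenszel odds ratio of detection in the same cell (x axis) for the 15 pairs of members (y axis), over all cells with a sex call (crosses) and in VEH male, LEM male and LEM female cells; VEH female cells are not drawn because they hold 12 cells with *Trim12a*. *Trim12a* and *Trim30d* reach 2.93 in LEM male and 1.92 in VEH male cells and 1.14 in LEM female cells.

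The members were also read in cell states that had no part in their choice. Cells with at least 4 summed counts of a set of disease-associated microglia (DAM) markers that included *Cst7*, *Lpl* and *Itgax* numbered 744 in VEH and 1020 in LEM. They held *Trim30a* at 70.3 CPM in VEH and 79.9 in LEM, against 74.0 and 79.6 CPM in cells with 0. *Trim12c* was at 23.0 CPM in VEH DAM-high cells against 31.9, and at 25.8 against 34.6 in LEM. *Trim34a* was at 12.3 against 15.9 CPM in VEH and at 12.1 against 17.1 in LEM, and *Trim30b* at 1.65 against 4.26 and 2.54 against 4.53. Median depth was 10444 counts in VEH DAM-high cells against 5718, so CPM and not the share of cells is given.

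Among the 126 VEH and 190 LEM cells with at least 4 counts of the proliferation markers *Mki67*, *Top2a* and *Ube2c*, *Trim30a* was at 112 CPM in VEH against 72.5 in cells with 0, and at 89.6 against 79.5 in LEM, where the intervals overlapped. In VEH the difference lay in male cells (144 against 76.9 CPM), while in female cells (70.4 against 64.4 CPM) the intervals overlapped. In cells with at least 4 MHC class II counts the 6 members together were at 138 against 142 CPM in VEH and 169 against 174 in LEM. Cells with choroid plexus markers held the 6 members at 98.7 CPM and the 134 cells with markers of border-associated macrophages at 181 CPM.

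The pathway around the members was described by gene lists. Of 57 measured ISGs other than *Ifit3*, *Isg15* and *Irf7*, 53 were at least 2-fold higher in ISG-high cells, with a median log2 ratio of 3.17, against 2.17 for the 6 members and -0.10 for all genes tested. *Ifit3b* (8.79) and *Ifit1* (7.83) had the largest ratios of that list, and *B2m* (0.70) and *Psmb8* (0.79) the smallest. Of 9 genes of the interferon receptor and its signalling, 4 were at least 2-fold higher, as were 2.15% of all genes tested. *Stat2* had a log2 ratio of 2.90, while *Ifnar1*, a chain of the receptor, had -0.34 and *Jak1* -0.18.

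Of 10 genes for known partners of TRIM30 and TRIM12 proteins in NF-κB signalling, 0 were past 2-fold in either direction. Their log2 ratios ran from -0.35 for *Tab3* to 0.18 for *Nfkbia*, the NF-κB inhibitor. Over all 11907 genes tested, 256 were at least 2-fold higher and 96 lower, so 0 of 10 does not set the partners apart. Of 33 other measured Trim genes, 5 were past 2-fold, led by *Trim30c* (2.96) and *Trim25* (1.93), an E3 ligase of the RIG-I pathway, and the median of the 33 was -0.13. *Trim7* (-0.90) was at the other end.

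Between the libraries, the ISG list had a median log2 ratio of LEM over VEH of 0.50 in female cells, where 25 of 57 genes were at least 1.5-fold higher, as were 2.27% of all genes tested. In male cells the list's median was -0.05, and 2 of 57 genes were past that fold, against 2.02% of all genes tested. The values of *Trim30a* were 0.47 and -0.11, those of *Trim30b* 0.63 and -0.15 and those of *Trim34a* 0.42 and -0.09. *Trim12c* was at 0.12 in both sexes, below the list's median in female cells and above it in male cells. *Trim12a* and *Trim30d* were above that median in female cells, at 6.13 and 4.85. The largest female ratios of that list were those of *Ly6a* (2.02) and *Oas1g* (1.95), both below *Trim30d* (4.85). Over the 10 TRIM partners the median was -0.04 for female cells and -0.02 for male cells, with 0 of 10 past 1.5-fold in either sex.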

How the data were processed

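The members, gene lists and comparisons were chosen with earlier results of these data known. Sorted microglia of 5 pooled mice per treatment were made into 10x Chromium 5′ libraries. Per the labels, the authors used Cell Ranger 8.0.0, and their methods name the mm10 transcriptome, SoupX for free RNA, and filters on genes, counts and mitochondrial share. The deposited values are whole-number UMI counts per gene and cell, with no normalization. Whether the SoupX correction is included cannot be told, and none was added. Cell names are running numbers per library, so shared barcodes could not be counted, and 0 columns were unmatched.

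Counts were summed per group of cells and divided by the group's total (CPM). Intervals are 95% exact Poisson, conditional binomial or Clopper-Pearson and leave out the spread between mice. No p-value was computed, since each treatment has 1 library. Genes tested had a count in 1% or more of VEH or of LEM cells. Cells under 2000 counts (7.10% of VEH, 4.98% of LEM) were left out of thinned values. Scrublet (scanpy 1.11.5, expected rate 0.1) called 1534 VEH (8.35%) and 3444 LEM (14.1%) cells doublets. These stayed in, except in an alternative. Named genes were the members, the 3 ISG class genes, neighbours within 1 Mb in at least 1% of cells, up to 4 extremes per list and the 5 closest genes for 3 members; a result that the rule would name is not reported here. Promoter windows come from RefSeq, and all 6 members matched. Protein identity was planned and is not analysed here. Python 3.11.15, NumPy 2.4.6 and SciPy 1.17.1 were used, and ratio, co-detection and thinning steps were tested on simulated data.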

Additional observations from a re-analysis of the deposited data

Results flagged for a closer look

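*Trim12a* moved in opposite directions in the 2 sexes. Its log2 ratio of LEM over VEH was 6.13 in female cells (0.438 CPM in VEH, 30.7 CPM in LEM) and -0.21 in male cells (16.3 and 14.0 CPM), and both counting intervals left out 0. *Trim30a* did so with a smaller size, at 0.47 in female and -0.11 in male cells. Each group is 1 pool of cells from few mice, so the difference between the sexes was not tested.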

How the results depend on the processing

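The summed 6 members had a log2 ratio of LEM over VEH of 0.29. It was 0.85 in female cells alone (0.85 also with at least 2 *Xist* counts, added after seeing the data), -0.072 in male cells alone, 0.38 with both sexes weighted equally, 0.26 thinned, 0.25 in ISG-none cells and 0.034 in ISG-high cells. In male cells the sign also changed for *Trim34a* (-0.087), *Trim12a* (-0.21), *Trim30a* (-0.11) and *Trim30d* (-0.12), and in ISG-high cells for *Trim34a* (-0.31) and *Trim30a* (-0.072). The intervals of *Trim34a* and *Trim30d* in male cells and of *Trim30a* in ISG-high cells hold 0, so no opposite direction is shown for these. The other intervals leave out 0 but also the spread between mice, so they show no direction of the treatment. *Trim30b*, whose main interval holds 0, was at -0.15 and -0.37. *Trim12c* stayed within counting error under all 12 alternatives. Other scalings, leaving out doublets and leaving out cells with markers of other types kept every member's direction.

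The summed members' log2 ratio of ISG-high over ISG-none cells was 2.08. It was 1.62 and 2.34 with cuts of 2 and 8 counts, 2.19 with a class from *Ifit1*, *Rsad2*, *Oasl2* and *Usp18*, 2.20 in VEH, 1.98 in LEM, 1.96 in female cells, 2.25 in male cells, 2.62 thinned and 2.14 without doublets. The odds ratio of *Trim12a* and *Trim30d*, 1.63, was 2.83 without strata, 2.002 at 2 counts or more, 1.94 in VEH, 1.15 in female and 2.40 in male cells, and 1.47 thinned. Added after seeing the data, it was 13.4 in VEH female (1 cell with both), 1.92 in VEH male, 1.14 in LEM female and 2.93 in LEM male cells. The cause of these shifts was not tested.

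The share of all genes past the fold was 1.20% for LEM over VEH, 0.399% among genes in at least 10% of VEH or of LEM cells and 9.41% with over 3 counts. For ISG-high cells it was 2.15%, 1.20% and 8.15%, and between female cells 0.0672%, 0.0532% and 3.44%. No paired analysis was possible because each treatment has 1 library. No replicate could be left out for the same reason. Low counts limit *Trim30b*, and the number of cells limits the VEH female ISG-high group of 62.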
